A study of Sus scrofa with 4 samples.

Results

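This report follows 44 pig genes for the machinery that carries proteins into mitochondria and puts the respiratory complexes together. They were chosen by name: every gene of the deposited table whose symbol begins with TIMM, TOMM, NDUFAF, CHCHD or SDHAF and a number, plus COX10 and COX17, which are 44 of 26921 genes in the table. The naming rule also asked for COA, UQCC and MICOS symbols and matched none, because in this annotation those genes carry locus numbers or older symbols. The rule itself uses symbols and no measured value.

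Nearly all mitochondrial proteins are made in the cytosol and must be imported. They pass the outer membrane through the TOM complex, are escorted across the intermembrane space by the small TIM chaperones or caught there by the CHCHD4 (MIA40) disulfide relay, and enter the inner membrane or matrix through the TIM22 and TIM23 complexes. Assembly factors (NDUFAF for complex I, SDHAF for complex II, COX10 and COX17 for complex IV) then add cofactors and join subunits without staying in the finished enzyme, and the CHCHD proteins include subunits of MICOS, the complex that shapes the cristae.

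The study measured mRNA in cultured pig testis cells labelled immature spermatogonia, the germ cells that sustain sperm production. It compared 2 control libraries, labelled WT, with 2 libraries labelled ZBTB16 knockdown, and the series' design text plans the knockdown by lentiviral shRNA in primary cells. ZBTB16 (PLZF) is a zinc finger transcription factor of undifferentiated spermatogonia, and the study asks what it controls in their self-renewal. The labels describe 2 independent experiments, give no animal age for these cultures, and do not state whether the controls received a vector, so knockdown and lentivirus cannot be told apart.

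The libraries held 15983390 to 18500447 expected counts (RSEM's estimate of fragments per gene). ZBTB16 itself stood at 1.77 and 1.76 FPKM (fragment counts scaled to transcript length and library depth) in the controls and 1.37 and 1.34 FPKM in the knockdown, a log2 fold change of counts of -0.36 with SE 0.11 (edgeR quasi-likelihood test, adjusted p = 0.00338). This call was lost with DESeq2 (adjusted p = 0.109) and with limma on FPKM (adjusted p = 0.0685, 0.0719 with a pseudocount of 0.1 and 0.101 with no filter). The deposited effective lengths imply mean fragments of 325.7 and 326.7 bases in the controls and 266.4 and 267.3 bases in the knockdown, so fragment length separated the groups and cannot be told apart from the knockdown. Markers bore out the cell label only in part. The list for undifferentiated spermatogonia (9 genes, ZBTB16 among them) summed to 162.9 and 161.2 FPKM in the controls and 132.6 and 131.2 in the knockdown, most of it UCHL1 (121.7 and 120.4 against 89.05 and 85.25), which fell by 0.33 (adjusted p = 1.24e-10). ID4 had 24.53 to 29.94 FPKM over the 4 libraries, SALL4 0.25 and 0.27 in the controls against 0.51 and 0.51, and NANOS2 and LIN28A were under 0.5 FPKM in every library. In that list 2 of 7 tested genes fell and 1 rose. Over all 15763 tested genes 23.8% fell and 22.7% rose, the shares to set beside the counts of every list here. The germ line list (5 genes) summed to 17.49 and 17.6 FPKM in the controls and 13.51 and 12.4 in the knockdown, with DND1 lower (-1.27, adjusted p = 1.39e-13), DAZL higher (0.54, adjusted p = 3.30e-05) and 3 not passing. The peritubular muscle list (5 genes) summed to 5389 and 5304 FPKM in the controls and 5230 and 5127 in the knockdown. By the test 4 of its genes were higher and 1 was lower, TAGLN (1918 and 1846 FPKM against 1442 and 1418). Of the Sertoli cell list, 5 of 8 rose and 2 fell, and its sum was 768.5 and 780.6 FPKM in the controls against 943.4 and 969 in the knockdown. The macrophage list summed to 33 and 36.85 FPKM in the controls and 22.24 and 24.04 in the knockdown, with 3 of 5 genes lower and none higher by the test. The Leydig cell list (6 genes) summed to 207.1 and 203.8 FPKM in the controls and 169.8 and 181.2 in the knockdown. Most of it was CYP11A1 (161.7 and 157.8 against 144.2 and 150.5), which did not pass. Of its 5 tested genes only INSL3 was called, lower by 0.72 (adjusted p = 6.78e-09). The endothelial list summed to 9.43 to 11.71 FPKM with none called. The differentiating list summed to 11.53 to 13.03 FPKM, with 1 of 2 tested genes higher. The part of these cells in the results on mitochondrial genes was not tested, and in such bulk samples fewer cells of a type and less RNA per cell cannot be told apart.

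Most of the import and assembly genes that could be tested fell in the knockdown. Among the assembly factors of complexes I and II, 3 of 8 and 1 of 3 did. Of the 42 that could be tested, 30 fell (adjusted p under 0.05), none rose and 12 did not pass. This is 71.4% of them, against 23.8% of all 15763 genes tested, and 22.7% of all genes rose. At an unadjusted p under 0.05 the counts were the same, 30 lower and 0 higher, and DESeq2 called 25 lower, against 17.1% of all its genes, and 0 higher, against 16.3%. The median log2 fold change was -0.42, with a range of -1.28 to 0.15, while the median over all tested genes was -0.00082. At least 1.5-fold falls were seen for 11 of the 42, against 5.28% of all genes. By FPKM, both knockdown libraries lay below both controls for 36 of the 42, above them for 1, and overlapped for 5. Over all tested genes 41.4% were lower and 29.0% higher in this sense. Leaving out control library 1, control library 2, knockdown library 1 or knockdown library 2 left 29, 26, 28 and 28 genes that fell, against 19.6%, 19.8%, 19.9% and 19.5% of all genes. In these fits TOMM22 rose without control library 2 and none rose otherwise, against 17.8%, 18.7%, 18.6% and 18.5% of all genes. The same 30 genes fell with RLE scaling (23.5% of all genes), upper-quartile scaling (23.6%), no filter on low counts (16.2%) and a replicate block (24.1%). With limma, 32 fell on log2(FPKM + 1), against 29.7% of all genes, 32 with a pseudocount of 0.1 (29.6%) and 30 with no filter (12.9%). None rose on log2(FPKM + 1), against 15.6%. Together the 44 genes took 0.1432% and 0.1428% of all counts in the controls and 0.1113% and 0.1129% in the knockdown. The other 2 members were not tested: TOMM6, a small TOM subunit, was listed at 0 counts in all 4 libraries, and TOMM20L, a relative of the receptor TOMM20, had 1 or 2 counts in each. The TOMM6 model of 401 bases overlaps PRICKLE4 on the same strand, and the part of this overlap in its 0 counts was not tested.

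**Figure D1:**
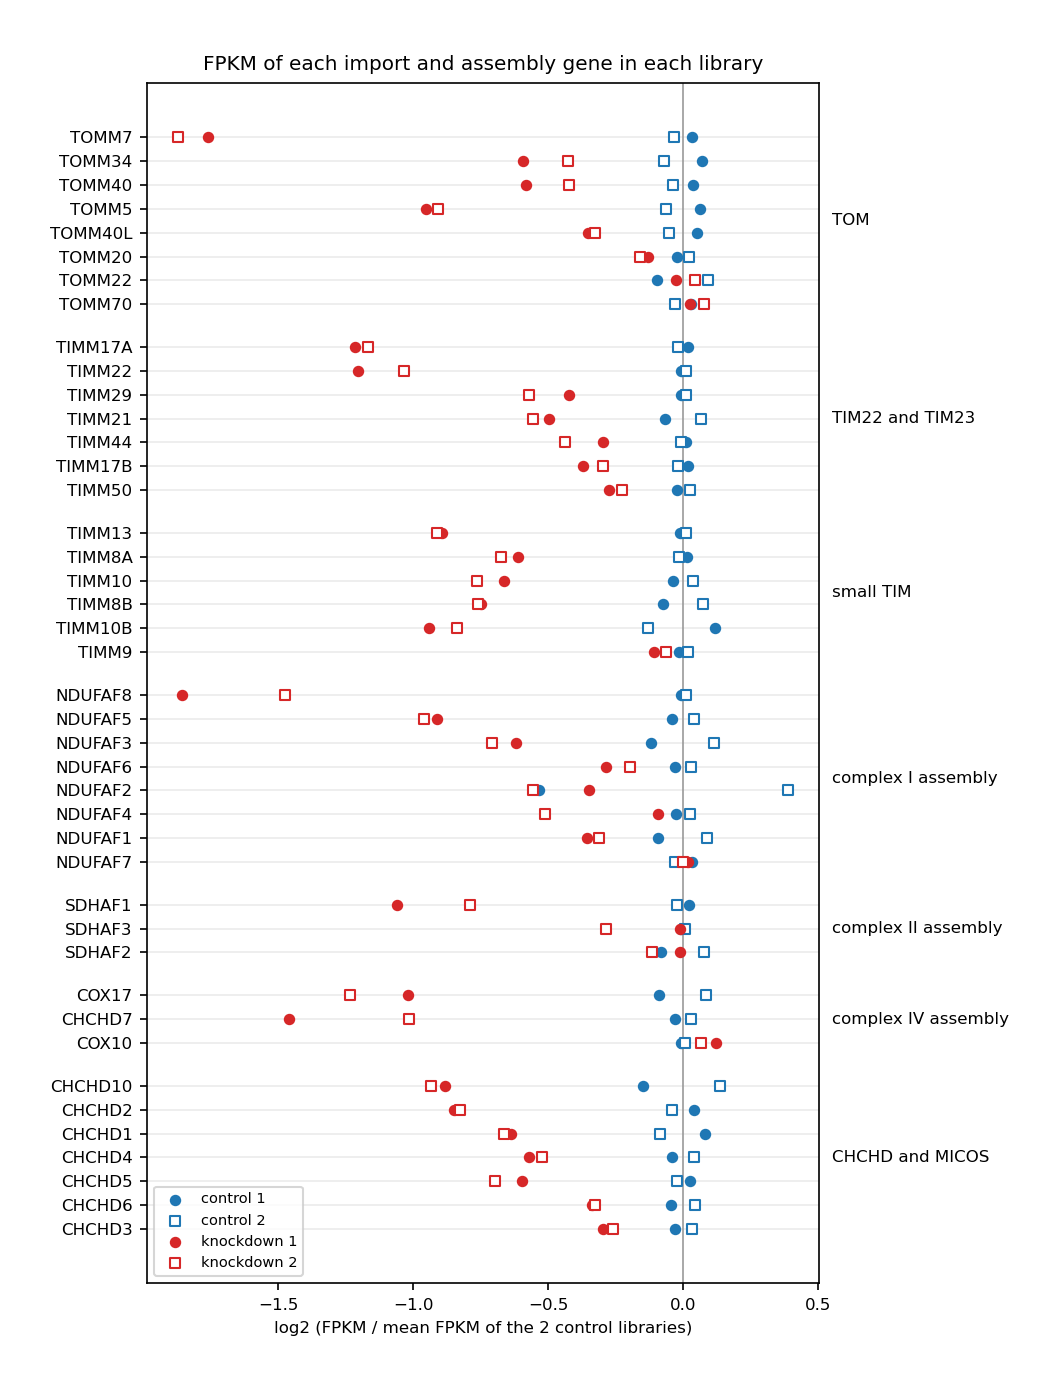
FPKM of the 42 tested genes in each library, as the log2 ratio to the mean of the 2 control libraries, by role; blue symbols are controls and red symbols knockdown libraries. Red symbols lie to the left of both blue ones for 36 genes, and to the right of both for COX10 alone.

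Promoter windows of these genes were read for the binding letters of factors known for nuclear genes of mitochondrial proteins. The windows were the 250 bases before each RefSeq gene start (Sscrofa 11.1), searched on both strands. The NRF1 letters (the half-site GCGCA followed by its reverse complement TGCGC) stood in 2 of 44 windows (4.55%), those of TOMM7 and TIMM13, against 0.737% of 20638 windows of protein-coding genes. An ETS core, CCGGAAG, stood in 8 of 44 windows (18.2%) against 7.48% of all. It stood in 5 of the 30 genes that fell and in 3 of the 14 others, tested or not. For the NRF1 letters these counts were 2 of 30 and 0 of 14. Whether either goes with falling was not tested. A YY1 core, AAGATGG, stood in 1 of 44 (2.27%), that of TOMM5, against 3.70% of all. No one of these letter strings contains another. Their median GC content was 57.8%, against 57.2% for all windows. The windows below are shown because the first pair holds the NRF1 letters in genes that fell, and the second pair holds the ETS core at 2 places each in a gene that fell (CHCHD5) and one that did not pass (COX10). Capitals mark the letters, which read CTTCCGG where the ETS core lies on the other strand. Positions are chr9:91578992-91579241 (minus strand) for TOMM7, chr2:76146696-76146945 (plus) for TIMM13, chr3:43915751-43916000 (minus) for CHCHD5 and chr12:58011581-58011830 (plus) for COX10, each written 5′ to 3′ toward the gene.
TOMM7: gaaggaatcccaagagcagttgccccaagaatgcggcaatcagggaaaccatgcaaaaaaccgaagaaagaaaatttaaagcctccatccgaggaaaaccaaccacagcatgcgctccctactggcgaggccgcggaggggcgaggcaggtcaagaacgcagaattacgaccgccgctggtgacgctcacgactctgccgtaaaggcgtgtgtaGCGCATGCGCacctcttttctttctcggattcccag
TIMM13: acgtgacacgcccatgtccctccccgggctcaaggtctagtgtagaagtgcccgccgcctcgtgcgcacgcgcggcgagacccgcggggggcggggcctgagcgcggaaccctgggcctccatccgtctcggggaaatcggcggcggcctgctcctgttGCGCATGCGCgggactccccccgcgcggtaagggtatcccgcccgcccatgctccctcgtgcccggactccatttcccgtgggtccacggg
CHCHD5: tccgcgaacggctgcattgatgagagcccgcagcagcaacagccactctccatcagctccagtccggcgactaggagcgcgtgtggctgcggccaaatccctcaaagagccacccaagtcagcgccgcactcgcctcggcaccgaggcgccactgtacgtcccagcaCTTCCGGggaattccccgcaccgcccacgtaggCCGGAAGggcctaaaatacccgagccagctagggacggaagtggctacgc
COX10: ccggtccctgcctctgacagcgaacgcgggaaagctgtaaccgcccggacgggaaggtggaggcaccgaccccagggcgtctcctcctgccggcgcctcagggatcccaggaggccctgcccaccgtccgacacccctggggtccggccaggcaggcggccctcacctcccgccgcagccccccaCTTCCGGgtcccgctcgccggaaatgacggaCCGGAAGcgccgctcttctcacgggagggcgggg
The NRF1 letters begin 36 bases before the TOMM7 start and 91 bases before the TIMM13 start. A match of letters is a description of the window and not a measured binding site.

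At the outer membrane, 6 of 8 tested TOM genes fell (75%, against 23.8% of all tested genes) and 2 did not pass (median log2 fold change -0.36). With a trend on transcript length removed, 5 of the 8 fell (62.5%, against 21.6% of all tested genes). The deepest fall here was in TOMM7, a small subunit of the TOM core that also helps hold PINK1 at the outer membrane. TOMM7 (chromosome 9, 91570069 to 91578991, minus strand) stood at 196 and 187 FPKM in the controls and 56.7 and 52.3 FPKM in the knockdown. The groups lay far apart, and its log2 fold change of counts was -1.20 with SE 0.10 (adjusted p = 4.04e-23). TOMM40, the channel itself, had 64.7 and 61.4 FPKM in the controls and 42.1 and 47.0 in the knockdown. Both knockdown libraries were lower, with a log2 fold change of -0.44, SE 0.05 (adjusted p = 4.29e-15). TOMM34, a cytosolic cochaperone for incoming precursors, went from 24.3 and 22.1 to 15.4 and 17.3 FPKM, a change of -0.44 with SE 0.07 (adjusted p = 5.67e-09). TOMM5, another small subunit, had 139 and 128 FPKM in the controls against 68.9 and 71.1 in the knockdown, without overlap. Its counts changed less, by -0.40 with SE 0.06 (adjusted p = 1.63e-08). The TOMM40 relative TOMM40L fell by 0.32 (adjusted p = 3.31e-05), and the receptor TOMM20 by 0.10 (adjusted p = 0.0133), a call lost with DESeq2 and without control library 2 or knockdown library 2. The other two receptors did not pass: TOMM22 had a log2 fold change of 0.06 (adjusted p = 0.307) and TOMM70 of 0.08 (adjusted p = 0.0989). Within this complex, then, the values ran from a receptor group within 0.10 of 0 on the log2 scale to a small subunit at -1.20. Transcript length ran the same way. The receptors TOMM20, TOMM22 and TOMM70 have 3388, 2871 and 8153 bases, and the small subunits TOMM7 and TOMM5 430 and 673. With the length trend removed TOMM5 did not pass (-0.046, adjusted p = 0.611), while TOMM7 still fell (-1.27). Role and length were not tested apart. TOMM40L overlaps NR1I3 and TOMM22 overlaps JOSD1 on the other strand, and the strand setting of the counting is not stated in the labels or files.

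All 7 genes grouped here by symbol under the inner membrane translocases TIM22 and TIM23 fell (median -0.43), against 23.8% of all tested genes. TIMM10B, a subunit of the TIM22 complex, was counted with the small TIM chaperones and did not pass (-0.15, adjusted p = 0.129). With a trend on transcript length removed, 5 of the 7 fell (71.4%, against 21.6% of all tested genes). TIMM17A, a core subunit of the TIM23 presequence translocase, led the 7 (chromosome 10, 24200345 to 24211790, plus strand). It stood at 84.3 and 82.2 FPKM in the controls and 35.8 and 37.1 in the knockdown. The 2 libraries of each group lay close together and far from the other group, with a log2 fold change of -1.05, SE 0.06 (adjusted p = 3.18e-35). Its paralog TIMM17B, which can take the same place in the complex, fell by only 0.23 with SE 0.07 (adjusted p = 0.00279). TIMM22, the channel that inserts carrier proteins, had 20.4 and 20.7 FPKM in the controls and 8.92 and 10.03 in the knockdown. Its log2 fold change was -0.86 with SE 0.10 (adjusted p = 1.34e-13), and the groups did not overlap. TIMM29, a partner of TIMM22, went from 6.68 and 6.77 to 5.01 and 4.53 FPKM (log2 fold change -0.43, SE 0.10, adjusted p = 0.000125). TIMM44, which tethers the import motor to the TIM23 channel, had 26.01 and 25.72 FPKM in the controls and 21.0 and 19.1 in the knockdown, a change of -0.29 with SE 0.06 (adjusted p = 1.65e-05), which did not pass with length and GC trends removed (-0.078, adjusted p = 0.314). The coupling subunit TIMM21 fell by 0.43 (adjusted p = 0.000196) and the receptor TIMM50 by 0.18 (adjusted p = 0.0164). TIMM50 did not pass with DESeq2 or when control library 2 or knockdown library 1 was left out, and TIMM17B did not pass with DESeq2 or without knockdown library 1. TIMM29 overlaps YIPF2 and TIMM17B overlaps PQBP1 on the other strand.

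Among the small TIM chaperones of the intermembrane space, 4 of 6 fell (66.7%, against 23.8% of all tested genes, median -0.46). The other 2, TIMM9 and TIMM10B, did not pass. With a trend on transcript length removed, 2 of the 6 fell (33.3%, against 21.6% of all tested genes). TIMM13 and TIMM8A form one chaperone hexamer, and both were lower. TIMM13 had 79.6 and 80.8 FPKM in the controls and 43.1 and 42.7 in the knockdown. The replicates nearly coincided, and the log2 fold change was -0.76 with SE 0.06 (adjusted p = 1.19e-24). TIMM8A, the gene of deafness-dystonia syndrome, went from 29.8 and 29.2 to 19.28 and 18.49 FPKM, a change of -0.55 with SE 0.07 (adjusted p = 2.45e-12). Its relative TIMM8B had 129 and 142 FPKM in the controls and 80.6 and 79.9 in the knockdown (log2 fold change -0.43, SE 0.07, adjusted p = 3.22e-08). TIMM10 and TIMM9, partners in the other hexamer, were not alike. TIMM10 had 33.5 and 35.2 FPKM in the controls and 21.7 and 20.2 in the knockdown, and fell by 0.49 with SE 0.11 (adjusted p = 5.16e-05); its model carries the class lncRNA in this annotation. TIMM9 had a log2 fold change of -0.01 (adjusted p = 0.911), and it overlaps TOMM20L on the other strand. The difference between TIMM10 and TIMM9 was not tested.

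Of the complex I assembly genes, 3 of 8 fell (37.5%, against 23.8% of all tested genes) and 5 did not pass (median -0.20). With a trend on transcript length removed, 3 of the 8 fell (37.5%, against 21.6% of all tested genes), not all of them the same. A pair of those that fell act together on the subunit NDUFS7: NDUFAF5, an enzyme that modifies it, and NDUFAF8, which stabilises NDUFAF5. NDUFAF8 (chromosome 12, 1517304 to 1519478, minus strand) stood at 29.0 and 29.4 FPKM in the controls and 8.06 and 10.5 in the knockdown. This rested on only 89 and 83 counts in the controls and 35 and 45 in the knockdown, and the log2 fold change was -1.16 with SE 0.20 (adjusted p = 2.25e-07). NDUFAF5 had 12.8 and 13.6 FPKM in the controls and 7.00 and 6.78 in the knockdown. Its groups were equally separate, with a change of -0.81, SE 0.13 (adjusted p = 5.62e-08). NDUFAF3, which works on an early membrane arm intermediate with NDUFAF4, went from 13.9 and 16.4 to 9.86 and 9.29 FPKM and fell by 0.43 with SE 0.16 (adjusted p = 0.0221). That call was lost with DESeq2 and without control library 2 or knockdown library 2. NDUFAF4 itself had a log2 fold change of -0.12 (adjusted p = 0.443). NDUFAF6 stood at 2.1 and 2.19 FPKM in the controls and 1.76 and 1.87 in the knockdown. The groups did not overlap, but the change of -0.20 with SE 0.12 did not pass (adjusted p = 0.152). With the length trend removed NDUFAF6 was called lower (-0.30, adjusted p = 0.0294), and NDUFAF3 did not pass (-0.079, adjusted p = 0.747). NDUFAF1, NDUFAF2 and NDUFAF7 ranged from -0.19 to 0.06, and none passed. NDUFAF1 overlaps NUSAP1 and NDUFAF7 overlaps PRKD3.

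Complex II has 3 assembly genes here, and 1 fell (33.3%, against 23.8% of all tested genes), with a median of -0.013. SDHAF1, which helps place iron-sulfur clusters in SDHB, had 8.54 and 8.28 FPKM in the controls and 4.03 and 4.86 in the knockdown. The groups were apart, with a log2 fold change of -0.84, SE 0.13 (adjusted p = 6.69e-09). SDHAF3, which also serves SDHB, had 12.3 and 12.4 FPKM in the controls and 12.2 and 10.1 in the knockdown. Its counts gave -0.01 with SE 0.14 (adjusted p = 0.952). SDHAF2, which helps attach the flavin to SDHA, had 7.6 and 8.48 FPKM against 7.98 and 7.42, overlapping groups, and a change of 0.01 with SE 0.10 (adjusted p = 0.940). SDHAF2 overlaps CPSF7 on the other strand.

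For complex IV, 2 of 3 genes fell (66.7%, against 23.8% of all tested genes, median -0.68). With a trend on transcript length removed, 2 of the 3 fell (against 21.6% of all tested genes). COX17, the copper chaperone that supplies the enzyme's copper centres, showed the deepest fall of all 42 genes by counts. It lies on chromosome 13 from 140584286 to 140594636 (plus strand). Its FPKM was 262 and 295 in the controls and 137 and 118 in the knockdown. Counts went from 621 and 526 to 263 and 228, a log2 fold change of -1.28 with SE 0.08 (adjusted p = 3.80e-34). CHCHD7, the counterpart of yeast COX23, had 48.3 and 50.3 FPKM in the controls and 17.9 and 24.4 in the knockdown, and fell by 0.68 with SE 0.11 (adjusted p = 1.11e-08). With length and GC trends removed its change was -0.23 and did not pass (adjusted p = 0.0722), and its deposited lengths differed between the groups by a factor of 1.13 (longer in the knockdown). COX10, the farnesyltransferase that begins the making of heme A, was the exception in direction. It had 8.64 and 8.73 FPKM in the controls and 9.44 and 9.08 in the knockdown, without overlap, yet its change of 0.15 with SE 0.08 did not pass (adjusted p = 0.114).

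All 7 remaining CHCHD genes fell (median -0.45), against 23.8% of all tested genes. With a trend on transcript length removed, 4 of the 7 fell (57.1%, against 21.6% of all tested genes). CHCHD2 was the most abundant of the 7 by FPKM. With its paralog CHCHD10 it forms an intermembrane space complex known for mutations in Parkinson disease and motor neuron disease. CHCHD2 (chromosome 3, 16812409 to 16819130, plus strand) had 284 and 268 FPKM in the controls and 153 and 155 in the knockdown. Replicates lay close and groups apart, with a log2 fold change of -0.68, SE 0.04 (adjusted p = 1.73e-40). CHCHD10 had 13.6 and 16.6 FPKM in the controls and 8.22 and 7.92 in the knockdown, a change of -0.69 with SE 0.17 (adjusted p = 0.000278). CHCHD4, the import receptor and oxidase of the disulfide relay, went from 24.3 and 25.7 to 16.8 and 17.4 FPKM and fell by 0.45 with SE 0.08 (adjusted p = 1.78e-07). Proteins of the small TIM, COX17 and CHCHD kinds are among those imported through this relay. CHCHD1, a protein of the mitochondrial ribosome's small subunit, had 17.0 and 15.2 FPKM against 10.4 and 10.2 (log2 fold change -0.54, SE 0.11, adjusted p = 5.13e-06). CHCHD5 had 48.1 and 46.5 FPKM in the controls and 31.3 and 29.2 in the knockdown and fell by 0.41 with SE 0.09 (adjusted p = 7.47e-05). The MICOS subunits CHCHD6 and CHCHD3 changed less, falling by 0.30 (adjusted p = 0.000319) and 0.10 (adjusted p = 0.0397). CHCHD3 passed narrowly and was lost in 3 of the 4 fits that left out a library, all but the one without knockdown library 2, and with DESeq2. CHCHD4 overlaps an uncharacterised locus on the other strand.

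Transcript length moved with these changes. Fold changes of the 42 tested genes had a Spearman correlation of 0.588 with transcript length, and all 15763 tested genes had 0.370. Genes are not independent replicates, and all points share the same 4 libraries and their fragment lengths, so these are descriptions. The 42 genes are also short, with a median of 1322 bases against 3077 for all tested genes. Between 500 and 1000 bases, 11 of 14 import and assembly genes fell (median -0.46), against 60.2% of all 884 genes of that length (median -0.42). From 1000 to 2000 bases 13 of 15 fell (median -0.44), against 43.1% of 3177 (median -0.19). At 2000 bases and above 4 of 11 fell (median -0.10), against 15.5% of 11467 (median 0.05). Under 500 bases TOMM7 and COX17, the 2 tested there, fell by 1.20 and 1.28 on the log2 scale, while by counts the median of all 235 such genes was 0.70, with 51.9% higher and 27.2% lower. The direction of that class turned with the fit. Its median was -0.43 with an effective length offset (43.4% lower, 14.04% higher), -0.23 with a length trend removed (33.6% lower) and -0.35 with limma on log2(FPKM + 1). TOMM7 and COX17 fell in all of these fits. In the class of 500 to 1000 bases the median therefore lay close to that of other genes of that length.

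**Figure D2:**
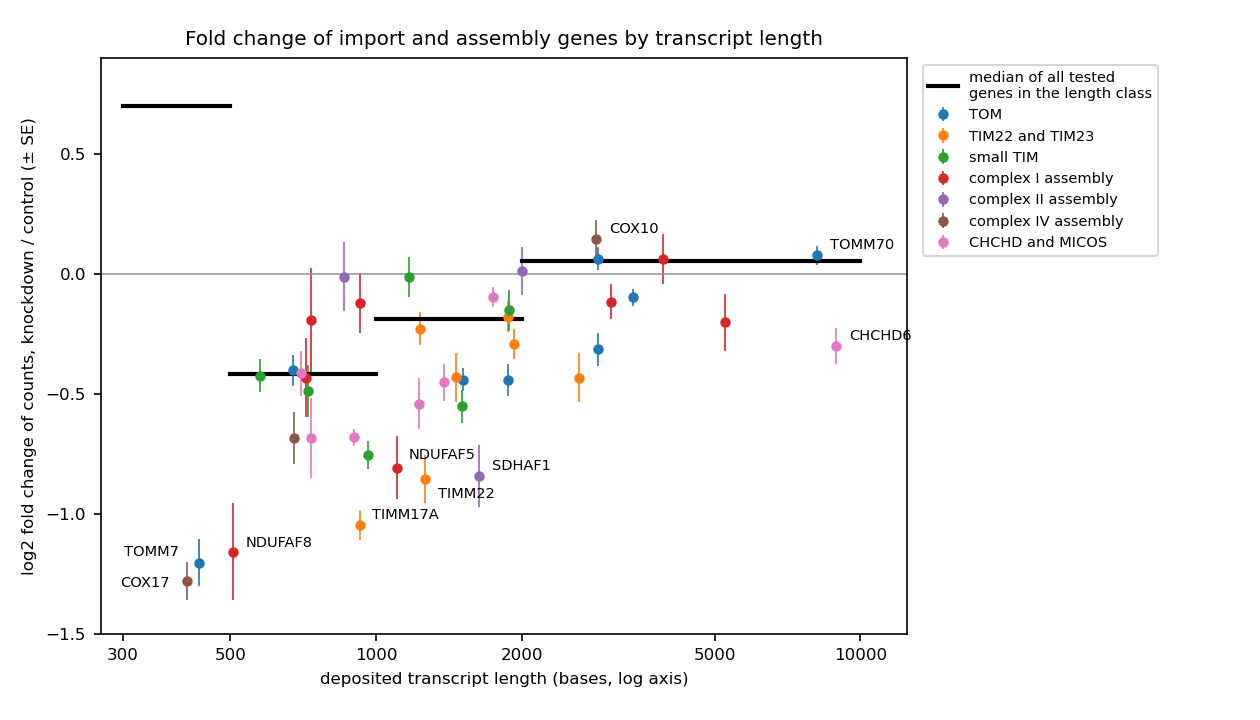
Log2 fold change of counts (edgeR, bars show SE) against deposited transcript length in bases on a log axis for the 42 tested genes, coloured by role; black lines give the median of all tested genes in each length class. TOMM7 at -1.20 and COX17 at -1.28 lie below a class median of 0.70, which holds for counts only and is -0.43 with the effective length offset, whereas genes of 500 to 1000 bases scatter about a class median of -0.42.

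**Figure D3:**
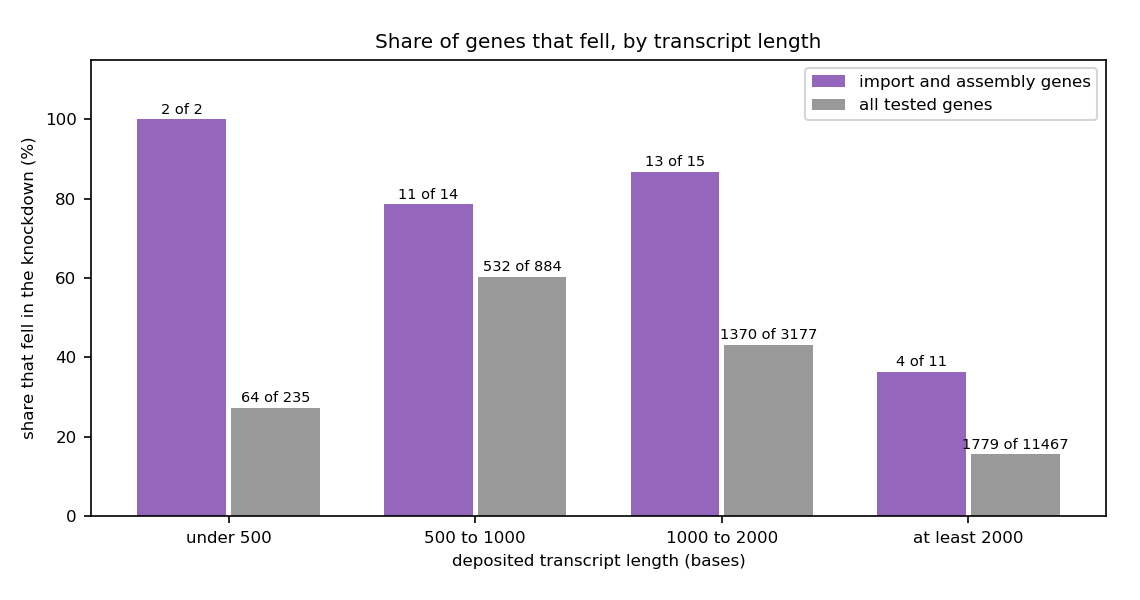
Percent of import and assembly genes (purple) and of all tested genes (grey) that fell in the knockdown, by class of deposited transcript length in bases; labels give the number that fell of the number tested. The purple bar is higher in every class, with 11 of 14 against 532 of 884 at 500 to 1000 bases and 13 of 15 against 1370 of 3177 at 1000 to 2000 bases.

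The comparison was repeated after a smooth trend on transcript length, fitted over all tested genes in each library, had been taken out. The median of the 42 genes then was -0.21, and 21 of the 30 still fell, with NDUFAF6 added. This makes 52.4% of the 42, against 21.6% of all genes, and none rose, against 19.3%. Calls were lost for CHCHD3, CHCHD5, CHCHD10, NDUFAF3, TIMM8B, TIMM10, TIMM17B, TIMM50 and TOMM5. The small TIM genes kept 2 of their 4 calls, TIMM13 and TIMM8A. Among genes of 500 to 1000 bases 5 of 14 fell (35.71%, median -0.13), near the 35.75% of all genes of that length (median -0.12). From 1000 to 2000 bases 10 of 15 fell, against 24.5% of all, and at 2000 bases and above 5 of 11, against 19.4%. With a GC trend removed as well, 20 of the 30 fell and 3 others (NDUFAF1, NDUFAF6 and TOMM70) joined them, against 21.7% of all genes. The median was -0.21, and COX10 was called higher (0.23, adjusted p = 0.00900), against 18.8% of all genes. The calls of CHCHD7 and TIMM44 were also lost there, and that of TIMM8B returned. In this fit 5 of 14 genes of 500 to 1000 bases fell, against 34.95% of all genes of that length, and 7 of 11 of at least 2000 bases, against 19.9%. Falls in TOMM7 (-1.27 with the length trend removed), COX17 (-1.46), NDUFAF8 (-0.97), TIMM17A (-0.79), TIMM22 (-0.68), SDHAF1 (-0.68) and NDUFAF5 (-0.61) stayed past the threshold. In all, 17 genes fell under every fit that was run: CHCHD1, CHCHD2, CHCHD4, COX17, NDUFAF5, NDUFAF8, SDHAF1, TIMM8A, TIMM13, TIMM17A, TIMM21, TIMM22, TIMM29, TOMM7, TOMM34, TOMM40 and TOMM40L.

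**Figure D4:**
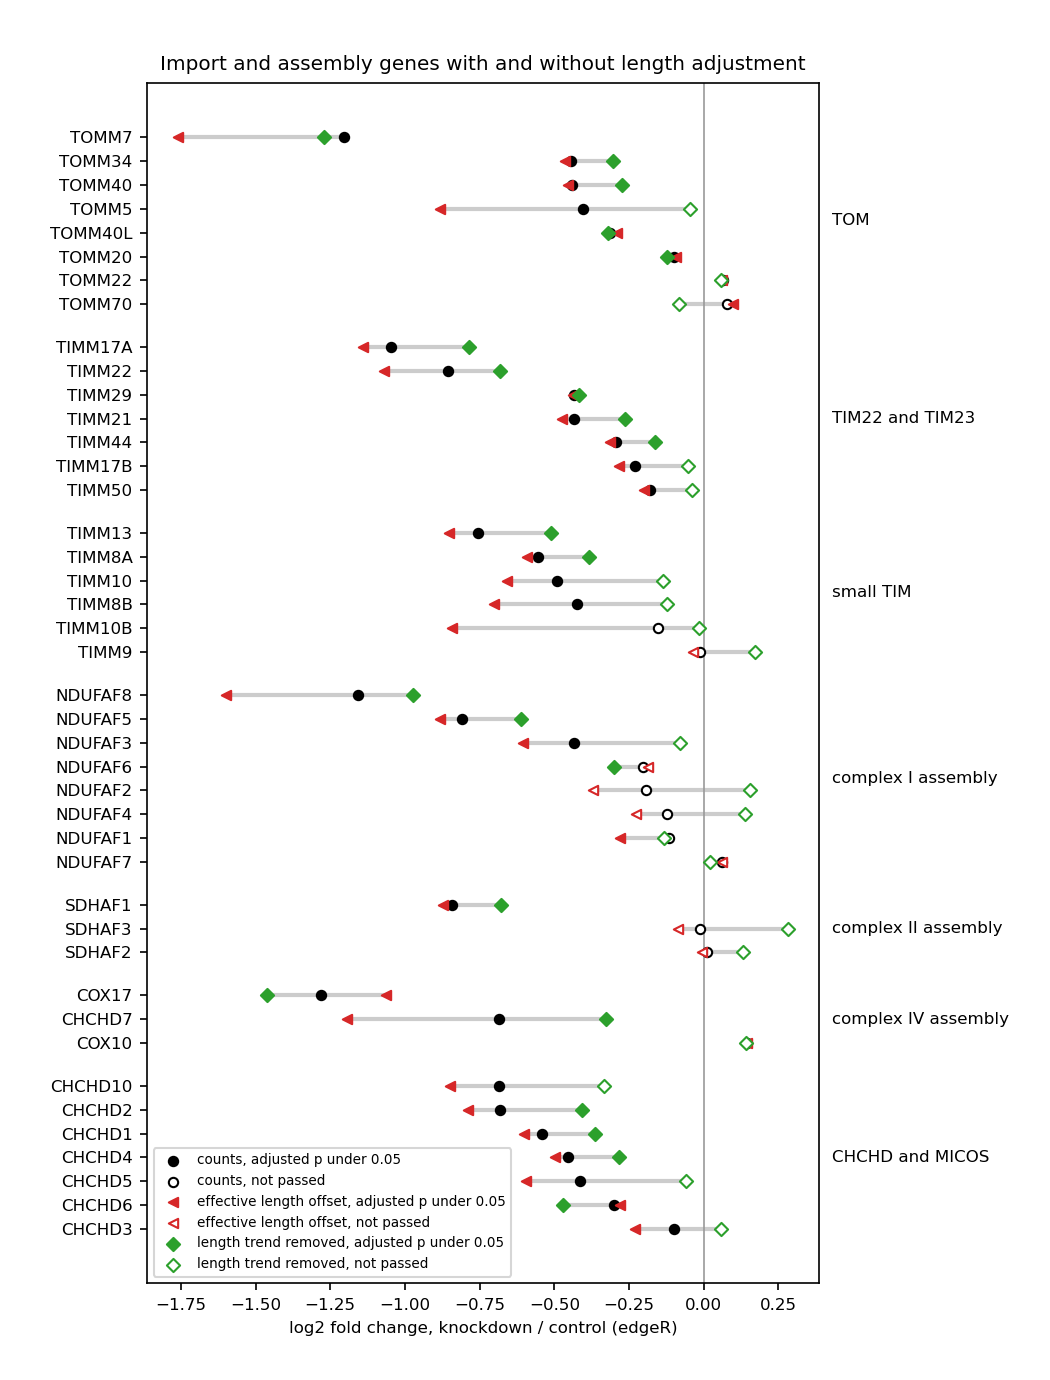
Log2 fold change of each tested gene from counts (black), after an offset for effective length (red) and with a smooth length trend removed (green); filled symbols have an adjusted p under 0.05. With the trend removed, 22 genes stay filled and the median moves from -0.42 to -0.21, while the offset moves it to -0.47.

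The level per length and the counts did not give one size of change. FPKM divides by an effective length that shortens as fragments grow, so for equal counts a short transcript has the higher FPKM in the libraries with longer fragments, here the controls. The knockdown mean of TOMM7 was 0.284 of the control mean by FPKM and 0.434 by counts, and that of NDUFAF8 0.318 and 0.448. With that effective length entered as an offset, 32 genes fell, against 23.9% of all genes: the 30 of the count test together with NDUFAF1 and TIMM10B. TOMM70, singled out after its values were seen, was then called higher (0.10, adjusted p = 0.0462), against 22.5% of all genes, whereas it was called lower with length and GC trends removed (-0.13, adjusted p = 0.00172). In 7 of the genes the deposited length itself, a mean over isoforms, differed by more than 5% between the groups. TIMM10B, a subunit of the TIM22 complex, was the widest, with a knockdown length 1.47 times the control length. Its FPKM was 18.46 and 15.54 in the controls and 8.86 and 9.51 in the knockdown, but its counts were 372 and 306 against 328 and 306. By counts its log2 fold change was -0.15 (adjusted p = 0.129), and with the offset -0.84 (adjusted p = 1.97e-08). COX17 was the opposite case, with a knockdown length 0.843 times the control length and a smaller change with the offset (-1.07) than by counts.

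**Figure D5:**
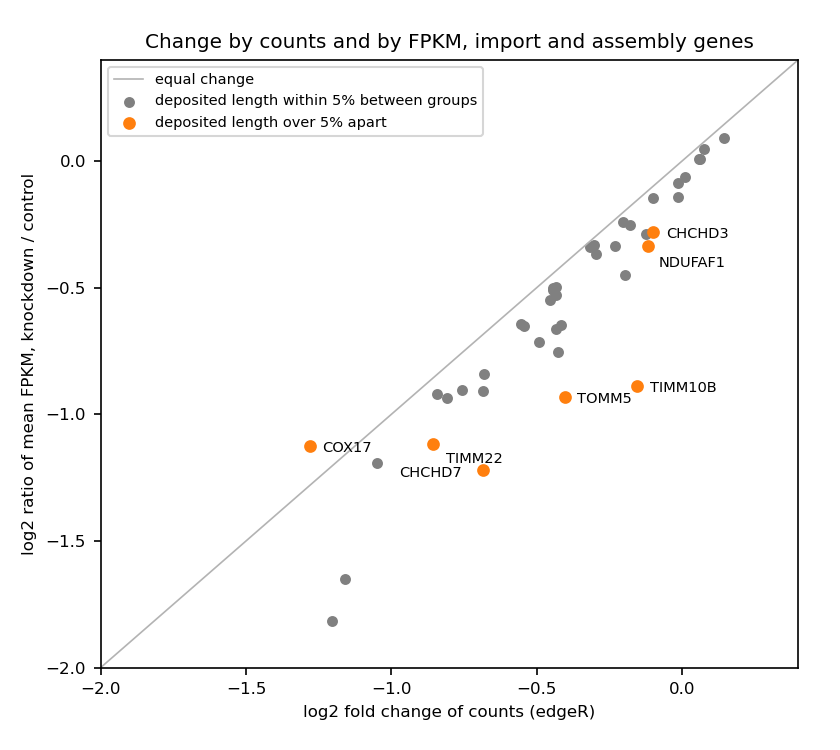
Log2 ratio of mean FPKM against log2 fold change of counts for the 42 tested genes, with the line of equal change; orange points have deposited lengths more than 5% apart between the groups. Most points lie below the line, TIMM10B and TOMM5 far below it, and COX17 above it.

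Other genes of the same pathways, outside the naming rule, were grouped in 3 lists. Of 25 further import genes (presequence processing, motor, sorting and folding), 14 fell, 1 rose and 10 did not pass (median -0.21). These are 56.0% and 4.00%, against 23.8% and 22.7% of all tested genes. With the length trend removed 10 fell and 4 rose (40.0% and 16.0%, against 21.6% and 19.3% of all), and DESeq2 called 10 lower (40.0%, against 17.1%). ROMO1, a small inner membrane protein of the TIM23 complex and the cristae, had 202 and 233 FPKM in the controls and 49.6 and 51.8 in the knockdown, and fell by 1.31 with SE 0.12 (adjusted p = 6.02e-20). HSPE1, the matrix cochaperonin, had 443 and 439 FPKM against 194 and 197, while its partner HSPD1 had 192 and 193 against 154 and 158. Both fell, HSPE1 by 0.84 (adjusted p = 5.05e-42) and HSPD1 by 0.23 (adjusted p = 4.15e-15). IMMP2L, an inner membrane peptidase singled out after its values were seen, was the one that rose (0.40, adjusted p = 0.0325), with overlapping FPKM of 6.06 and 5.26 against 6.25 and 5.02. It did not pass with DESeq2 (adjusted p = 0.268), nor without control library 1 (0.0901), control library 2 (0.127) or knockdown library 1 (0.476).

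Of 27 further assembly factors, 17 fell (63.0%, against 23.8% of all tested genes), none rose and 10 did not pass (median -0.30). FMC1, for the ATP synthase, went from 46.0 and 43.0 to 14.94 and 14.02 FPKM (log2 fold change -1.16, SE 0.17, adjusted p = 1.01e-09). CMC1, for complex IV, had 34.0 and 38.8 FPKM in the controls and 16.1 and 16.8 in the knockdown and fell by 0.84 (adjusted p = 7.73e-10). HIGD2A, for supercomplexes, had 141 and 144 FPKM against 72.9 and 73.6 and fell by 0.64 (adjusted p = 5.88e-16). DESeq2 called 8 of these factors lower, 30.8% of the 26 it tested, against 17.1% of all its genes. With the length and GC trends removed 9 fell (33.3%, against 21.7% of all genes).

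Of 16 cristae and quality control genes, 9 fell (56.2%, against 23.8% of all tested genes), 2 rose (12.5%, against 22.7%) and 5 did not pass (median -0.20). PHB, a prohibitin, had 99.9 and 98.3 FPKM in the controls and 56.3 and 54.6 in the knockdown and fell by 0.76 (adjusted p = 3.86e-44). PARL, a rhomboid protease, fell by 0.57 (adjusted p = 3.74e-17), and STOML2, a partner of prohibitins in the inner membrane, by 0.54 (adjusted p = 5.58e-19). IMMT, the core subunit of MICOS, had 63.6 and 63.5 FPKM in the controls and 76.3 and 79.1 in the knockdown and rose by 0.28 (adjusted p = 1.64e-13). OPA1, the inner membrane fusion GTPase, had 9.92 and 9.66 FPKM against 12.2 and 12.3 and rose by 0.35 (adjusted p = 1.81e-11). Both risers were singled out after their values were seen.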

How the data were processed

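RNA of 4 cultures (2 control, 2 ZBTB16 knockdown) was sequenced on an MGI platform. Per the labels' protocols, the authors cleaned reads with SOAPnuke 2.1.0, aligned them with HISAT2 2.2.1 to Sscrofa 11.1 and with bowtie2 2.3.5 to transcripts, and estimated expression with RSEM 1.3.3. The authors deposited expected counts, FPKM values and lengths per gene. The authors' deposited TPM values were not used here.

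Expected counts were rounded and tested with edgeR 4.0.16 (R 4.3.3; quasi-likelihood, TMM scaling, filterByExpr with a minimum count of 10 and total of 15), with Benjamini-Hochberg adjustment over 15763 genes. A gene rose or fell at an adjusted p under 0.05; SE is the log2 fold change divided by the square root of the test's F. All adjusted p-values are from this test unless another is named. Genes under this filter were left out. Alternatives were RLE and upper-quartile scaling, no filter, a replicate block, the effective length as offset, a smooth length trend removed (mgcv 1.9.3), each library left out, DESeq2 1.42.0, and limma 3.58.1 on the deposited FPKM as log2(FPKM + 1), with a pseudocount of 0.1 and with no filter. The length and GC fit was chosen after the data were seen. The edgeR test was also run on simulated counts, drawn from the control means with the fitted common dispersion and no effect of length. That run cannot bear on a length effect or on a wider spread between cultures.

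Within each group, chi-square per gene was 1.15 (controls) and 1.26 (knockdown), against 25.1 to 27.1 between groups. The values within groups lie little above what count sampling alone gives. The fitted common coefficient of variation beyond sampling was 0.01285. SEs and p-values of the edgeR fits measure changes against this small spread. Whether it covers the spread between independent cultures cannot be told from 2 libraries a group. With 2 libraries a group an exact permutation test cannot go below p = 0.333. The replicate numbers did not pair the libraries (correlation of deviations 0.0663 over 7896 genes). Whole counts, within 0.005, were seen for 37 of the 44 genes in all libraries, so 7 rest partly on RSEM's split of shared reads.

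Values in every library were given for up to 4 genes per role with the smallest p and a mean of at least 1 FPKM, for those that fell at least 1.5-fold or rose, for those whose sign differed with the length offset, and for up to 3 genes per list. The genes and lists were chosen with earlier results of these data known.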

Additional observations from a re-analysis of the deposited data

How the results depend on the processing

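With 2 libraries in each group the spread is known poorly, and fragment length separates the groups completely, so no fit here removes it without also touching the knockdown. The labels give both groups the same replicate numbers, which did not pair the libraries; with the replicate block, 30 of the 42 genes fell, 30 of them the same genes, and the median log2 fold change was -0.42. RLE scaling, upper-quartile scaling and no filter also gave the same 30 calls.

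The median over the import and assembly genes was -0.47 with the effective length offset, -0.21 with the length trend removed, -0.21 with the length and GC trends removed, -0.49 with limma on log2(FPKM + 1), -0.51 with the pseudocount of 0.1 and -0.49 without the filter; leaving out 1 library gave -0.41 to -0.37. The number that rose was 1 with the offset (TOMM70), 1 with length and GC trends removed (COX10), and 0 to 1 when a library was left out (TOMM22 without control library 2). The number that fell was 26 to 29 when a library was left out.

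With the length trend removed, 2 small TIM, 4 CHCHD and MICOS, and 5 of 14 genes of 500 to 1000 bases fell (35.71%, against 35.75% of all genes of that length). With the GC trend removed too, 4 TIM22 and TIM23, 1 complex IV, 4 CHCHD and MICOS, 5 of 14 genes of 500 to 1000 bases (against 34.95% of all) and 7 of 11 of at least 2000 bases (63.6%, against 19.9%) fell. Among the further import genes the number that rose was 2 with the offset, 4 with the length trend removed, 2 with both trends removed, 0 with DESeq2 and with each of the 3 limma fits, and 0 to 1 when a library was left out (0 without control library 1, control library 2 or knockdown library 1). Among the further assembly factors 9 fell with both trends removed, 8 with DESeq2 and 11 with limma without a filter, and 0 to 1 rose when a library was left out. Among the cristae and quality control genes 4 rose with the length trend removed. The cause of these differences was not tested.

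Some signs turned. Among genes that fell by counts, CHCHD5 (-0.41 by counts) was 0.0209 (adjusted p = 0.888), NDUFAF3 (-0.43) 0.00995 (adjusted p = 0.971), TIMM17B (-0.23) 0.0049 and TIMM50 (-0.18) 0.0237 with both trends removed, and CHCHD3 (-0.098) was 0.058 with the length trend removed. TOMM70 (0.08, not passing) fell with both trends removed (-0.13). SDHAF2 was -0.0067 with the offset, -0.0543 with limma on log2(FPKM + 1) and without the filter, -0.0604 with the pseudocount of 0.1, and -0.0713 to 0.0897 when a library was left out (negative without control library 1 or knockdown library 1). SDHAF3 was 0.28 with the length trend removed, 0.20 with both, and -0.12 to 0.0780 when a library was left out (positive without knockdown library 2).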

Other observations

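Genes of the same families that carry locus numbers or older symbols in this annotation were found by product name after the data were seen, and are given as values. There are 17 of them, 16 could be tested, and 10 fell (62.5%, against 23.8% of all tested genes), 0 rose (against 22.7%) and 6 did not pass. They include uncertain copies of genes followed above. LOC110259342, named for TIMM29, is modelled as an lncRNA, had 0.24 to 0.32 FPKM and did not pass. LOC100739656, named for TOMM22, had 0 counts in every library and was not tested. LOC100513346, named for TIM16, fell by 0.24 (adjusted p = 0.0112), and its deposited length in the knockdown was 1.37 times the control length. It did not pass with DESeq2 (adjusted p = 0.183) or with the length trend removed (-0.066, adjusted p = 0.561). With length and GC trends removed its change was 0.035 (adjusted p = 0.775). MINOS1, an older symbol of the MICOS subunit MIC10, had 522 and 546 FPKM in the controls and 182 and 187 in the knockdown (log2 fold change of counts -1.26, SE 0.04, edgeR adjusted p = 2.00e-69). This is close in size to the changes of COX17 and TOMM7. UQCC, an assembly factor of complex III, had 12.1 and 12.1 FPKM against 8.41 and 9.01 (-0.40, SE 0.08, adjusted p = 1.55e-05). UQCC3, listed as LOC100621476, changed by -0.57 (adjusted p = 3.80e-05).

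Complex IV factors under locus numbers differed in size. COX19 (LOC100522861), a twin CX9C protein that partners COX11, changed by -0.85 (adjusted p = 1.07e-14). COA6 (LOC100512926) changed by -0.79 (adjusted p = 1.92e-05), COA3 (LOC100518575) by -0.71 (adjusted p = 1.19e-13) and COA5 (LOC100524554) by -0.51 (adjusted p = 1.03e-08). COA1 (LOC100516527) changed by -0.37 (adjusted p = 5.19e-06). It did not pass with the length trend removed (-0.15, adjusted p = 0.0831) or with length and GC trends removed (-0.073, adjusted p = 0.462). COX11 (LOC100739396) at -0.02, COX15 (LOC100156375) at -0.07, which works after COX10 in heme A synthesis, and the insertase COX18 (LOC100520317) at 0.16 did not pass. COA4 (LOC100514530) at -0.41 (adjusted p = 0.0603) and COX16 (LOC100525232) at -0.20 (adjusted p = 0.534) did not pass either. COX18 was called higher with the length trend removed (0.31, adjusted p = 0.0190) and with length and GC trends removed (0.29, adjusted p = 0.0256), and COX15 lower in both (-0.21, adjusted p = 0.00294, and -0.24, adjusted p = 0.000552). TIMM23, the TIM23 channel (LOC100157391), had 43.65 ± 2.298 FPKM (SD, n = 2) in the controls and 32.37 ± 0.6505 in the knockdown and changed by -0.33 (adjusted p = 1.71e-09).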
